A study of Mus musculus with 4 samples.

Results

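Plasmacytoid DCs (pDCs) carry a set of surface receptors and effector proteins, several of which are also found in other cells. From that set 10 genes were followed here in early hematopoietic progenitors with and without the transcription factor Bcl11a. They are *Siglech*, *Bst2*, *Lair1*, *Cd300c*, *Ly6d*, *Tlr7*, *Tlr9*, *Cox6a2*, *Pacsin1* and *Pltp*, none of which encodes a transcription factor, and they were found by their gene symbol in the annotation of the array. Each was represented by 1 probe set, so the group holds 10 of 19938 genes measured. RNA came from granulocyte-macrophage progenitors (GMPs) and from multipotent progenitors (MPPs), the latter sorted as LSK cells without CD150, of donor origin in the BM of lethally irradiated (1200 rad) B6.SJL mice, 4 weeks after transfer of WT or Bcl11a-/- fetal liver cells. Both populations were taken from both genotypes, giving 4 arrays with 1 per condition. The sample labels write the genotypes as Bcl11a(+/+) and Bcl11a(-/-). All groups shared the irradiated host and the transfer. The allele lacks the first exon of *Bcl11a* in every donor cell, cells were pooled by donor genotype, and the number and age of the mice in a pool are not given in the sources used here. Replicate arrays are lacking, so the differences below stand without a replicate check or a p-value.

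pDCs are known for making large amounts of type I interferon when the endosomal receptors Tlr7 and Tlr9 meet viral RNA or DNA. They arise from progenitors that express Flt3, and Siglec-H and BST2 are the surface proteins by which they are usually identified. GMPs and MPPs are not pDCs, so the arrays show how far these genes were already transcribed in progenitors. In such bulk samples fewer cells of a type and less RNA per cell cannot be told apart.

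The arrays as a whole fitted their labels. Targeted *Bcl11a* was measured at 9.89 (log2) in WT MPPs against 8.64 in those of Bcl11a-/- donors, and at 8.60 against 7.77 in GMPs. Probes outside the first exon can still find transcript, which makes this a weak check. All 10 GMP marker genes had lower values in MPPs than in GMPs of either genotype, and 7 of 8 measured MPP and stem cell markers had higher values. The exception was *Slamf1*, which encodes CD150, the marker that the MPP sort left out. Markers of other cells also differed between genotypes. Of 7 measured erythroid markers, 6 were over 2-fold higher in Bcl11a-/- GMPs. The linear signals of all 7 summed to 6987 there against 1773 in WT GMPs. Most of both sums came from *Car1*, with log2 signals of 12.46 and 10.38. Of the 10 GMP markers, 6 had lower values in Bcl11a-/- than in WT MPPs, 4 of them by over 2-fold, and the other 4 had higher values. *Flt3*, whose ligand drives pDC development, had an MPP difference of −1.60. The other 7 measured MPP and stem cell markers had higher values in Bcl11a-/- MPPs, all within 2-fold. The part of these markers in the differences below was not tested.

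Among the 10 genes only *Bst2* and *Cox6a2* differed by more than 2-fold between Bcl11a-/- and WT MPPs, and both were lower in Bcl11a-/- cells, *Bst2* by 3.46-fold and *Cox6a2* by 3.38-fold. These are 2 of 10 genes, and of all genes 2.02% were over 2-fold lower, 0.908% over 2-fold higher and 2.92% over 2-fold in either direction. None of the 10 was higher by that much. In GMPs none of the 10 differed by more than 2-fold between genotypes, where 0.281% of all genes were lower, 0.361% were higher and 0.642% passed in either direction. The median log2 difference of the group, Bcl11a-/- minus WT, was −0.26 in MPPs and −0.11 in GMPs, and the medians of all genes were 0.05 and 0.01.

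**Figure D1:**
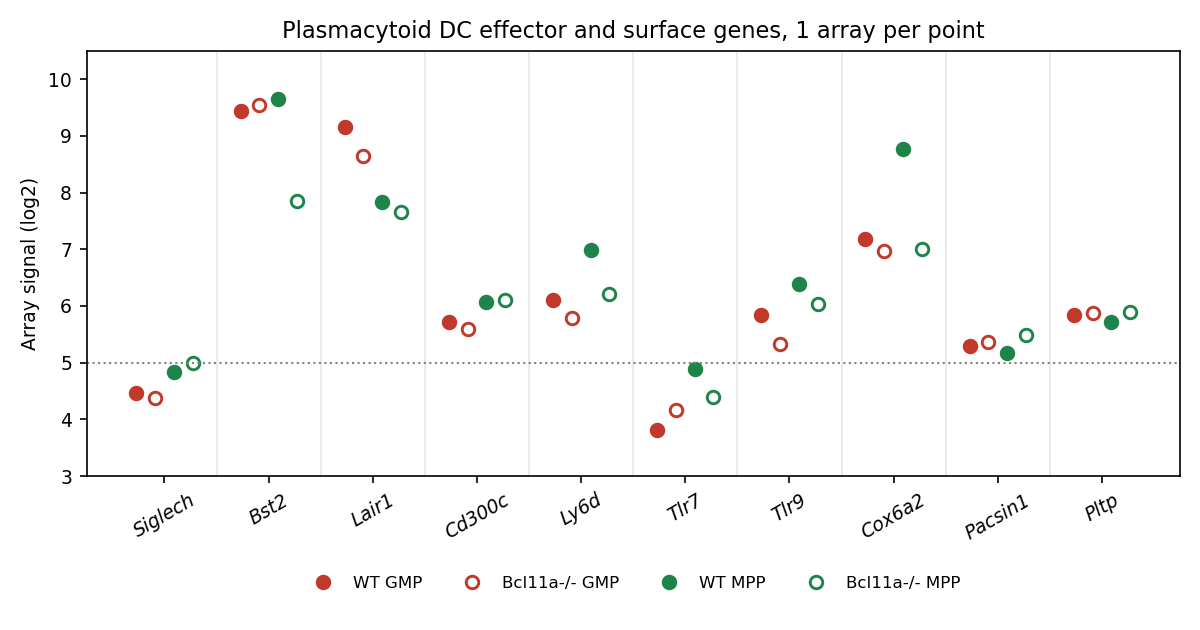
Array signal (log2) of the 10 genes in GMPs (red) and MPPs (green), where filled circles stand for WT and open circles for Bcl11a-/- cells, 1 array per point, and a dotted line at a signal of 5. *Bst2* is low only in Bcl11a-/- MPPs (7.86), *Cox6a2* is high only in WT MPPs (8.76), and *Siglech* and *Tlr7* lie near or under 5 on every array.

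The sequence before the start of *Bst2* is shown because *Bst2* had the largest difference of the group, and that of *Cd300c* because it holds the same interferon-response letters in a gene without a difference. Each runs 5′ to 3′ over the 250 bases before the RefSeq start of the gene on assembly GRCm38.p6, and both genes lie on the minus strand. Capitals mark matches to GAAA followed after any 2 bases by GAAA, the core of the interferon-stimulated response element (ISRE), and to TGACCA, the letters known as a BCL11A motif.
*Bst2*, chr8:71537473-71537722: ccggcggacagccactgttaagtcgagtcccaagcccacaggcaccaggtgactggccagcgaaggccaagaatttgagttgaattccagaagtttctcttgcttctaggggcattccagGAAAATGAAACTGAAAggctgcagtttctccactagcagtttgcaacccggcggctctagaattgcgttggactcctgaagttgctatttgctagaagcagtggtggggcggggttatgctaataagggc
*Cd300c*, chr11:114960508-114960757: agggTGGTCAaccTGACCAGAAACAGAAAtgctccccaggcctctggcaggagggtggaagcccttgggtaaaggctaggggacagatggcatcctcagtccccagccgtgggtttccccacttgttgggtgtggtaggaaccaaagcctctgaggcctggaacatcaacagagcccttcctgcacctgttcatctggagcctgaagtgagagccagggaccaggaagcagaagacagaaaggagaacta
Both strands were searched. *Bst2* held 2 overlapping ISRE matches, 130 to 121 and 124 to 115 bases before the start, and no TGACCA. *Cd300c* held 1 ISRE match at 231 to 222 bases before the start, with a TGACCA directly before it at 237 to 232 and another on the opposite strand at 246 to 241. Of the 7 group members with a promoter sequence at hand, these were the only matches to either motif. The ISRE core was found in 2.98% of 32851 promoter windows of this length and TGACCA in 11.4%. Among measured genes with the ISRE core in the window, 2.82% were over 2-fold lower in MPPs without Bcl11a, and among those with TGACCA 2.05% were, beside 2.05% of all 15614 genes that had a window. CANNTG, the E-box bound by E proteins such as E2-2, was in 6 of the 7 windows (all but that of *Pacsin1*) and in 66.2% of all windows. A match of letters does not show that a factor binds.

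*Bst2* encodes BST2 (tetherin), an interferon-inducible membrane protein that holds budding virus particles at the cell surface and is the antigen of common pDC antibodies. Its log2 signal was 9.65 in WT and 7.86 in Bcl11a-/- MPPs, and 9.44 in WT and 9.55 in Bcl11a-/- GMPs. Bcl11a-/- MPPs thus stood apart from the other 3 arrays, which lay within 0.21 of each other. Of all 19938 genes, 64, *Bst2* included, had a difference between the MPP arrays of −1.79 or lower. In GMPs the difference was 0.10. Other interferon-stimulated genes did not share the pattern, and several were too low on the arrays to tell. Of 10 measured genes on that list, none was over 2-fold in MPPs or in GMPs. Their MPP differences ran from −0.36 for *Rtp4* to 0.73 for *Mx1*, whose signal lay between 3.34 and 4.08 on all arrays. The median difference of the list was 0.10 in MPPs and −0.08 in GMPs. Only 6 of the 10 reached a log2 signal of 6 in WT MPPs, where the median signal was 6.13. Genes this low could hardly show a fall as large as that of *Bst2*.

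*Siglech*, the most specific surface marker of mouse pDCs, encodes a sialic acid-binding lectin that signals through the adaptor DAP12. Its log2 signal was 4.83 in WT and 5.0 in Bcl11a-/- MPPs, and 4.47 in WT and 4.37 in Bcl11a-/- GMPs. A signal under 5 was found for 32.5% to 37.4% of genes on each array and *Siglech* lay near or under that signal on all 4. *Tyrobp*, which encodes DAP12, had signals between 10.42 and 11.21 and a difference of 0.23 in MPPs and −0.02 in GMPs.

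*Lair1* encodes an inhibitory receptor for collagen found on many leukocytes, and it was higher in GMPs than in MPPs. Its log2 signal was 7.83 in WT and 7.67 in Bcl11a-/- MPPs, and 9.16 in WT and 8.64 in Bcl11a-/- GMPs. Between the populations it was 2.52-fold lower in WT MPPs than in WT GMPs and 1.97-fold lower in Bcl11a-/- MPPs than in Bcl11a-/- GMPs. Between genotypes it was within 2-fold, with differences of −0.52 in GMPs and −0.16 in MPPs.

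*Cd300c* encodes a receptor of the immunoglobulin-like CD300 family. Its log2 signals of 6.07 in WT and 6.11 in Bcl11a-/- MPPs, and 5.71 in WT and 5.58 in Bcl11a-/- GMPs lay close together. The difference between genotypes was −0.13 in GMPs and 0.04 in MPPs, where its sign turned with median (−0.0084) or lowess centering (−0.0058).

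*Ly6d* encodes a GPI-anchored surface protein that marks lymphoid progenitors turned toward the B lineage and is also expressed by pDCs of lymphoid origin. Its log2 signal was 6.99 in WT and 6.21 in Bcl11a-/- MPPs, and 6.10 in WT and 5.79 in Bcl11a-/- GMPs. WT MPPs were thus the highest of the 4 arrays. *Ly6d* was 1.72-fold lower in Bcl11a-/- than in WT MPPs, the lowest MPP difference of the group after *Bst2* and *Cox6a2* although within 2-fold, and 1.24-fold lower in Bcl11a-/- GMPs. B lineage markers differed between the same arrays. Of 11 measured, 10 were over 2-fold lower in MPPs and 5 in GMPs lacking Bcl11a. In GMPs the log2 signals of *Cd79a* (5.59 to 3.39), *Ms4a1* (5.23 to 3.78) and *Ebf1* (5.05 to 3.88) fell from little above 5 to under it. Their GMP calls thus rest on signals under 5. The sum of the linear signals of the 11 markers was 4605 in WT MPPs, 549 in Bcl11a-/- MPPs, 1161 in WT GMPs and 596 in Bcl11a-/- GMPs. The part of these markers in the *Ly6d* difference was not tested.

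The nucleic acid receptors Tlr7, which detects single-stranded RNA, and Tlr9, which detects unmethylated CpG DNA, sit in endosomes and signal through Myd88 to Irf7. *Tlr7* had log2 signals of 4.89 in WT and 4.39 in Bcl11a-/- MPPs, and 3.82 in WT and 4.16 in Bcl11a-/- GMPs, all under 5. It was 2.10-fold higher in WT MPPs than in WT GMPs, and this difference was 0 once signals under 5 were set to 5. *Tlr9* had log2 signals of 6.39 in WT and 6.03 in Bcl11a-/- MPPs, and 5.84 in WT and 5.32 in Bcl11a-/- GMPs. It was lower in Bcl11a-/- cells of both populations but within 2-fold, with a difference of −0.52 in GMPs and −0.36 in MPPs.

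Other genes of the endosomal TLR pathway were mostly within 2-fold between genotypes. Of 24 measured, 22 were within 2-fold in MPPs and all 24 in GMPs, and their medians were −0.13 and −0.08. *Unc93b1*, which encodes the chaperone that carries these receptors to endosomes, was 2.08-fold lower in Bcl11a-/- MPPs, from a log2 signal of 8.82 to 7.76, and had a difference of −0.61 in GMPs. *Tlr3*, a receptor for double-stranded RNA, was 2.55-fold higher in Bcl11a-/- MPPs, from 4.63 to 5.99. Its WT signal was under 5, so this call rests on a low value. The adaptor gene *Myd88* and the interferon regulator *Irf7* had MPP differences of 0.09 and 0.11.

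*Cox6a2* encodes the heart and skeletal muscle form of subunit 6A of cytochrome c oxidase, and pDCs are unusual among blood cells in expressing it. Its log2 signal was 8.76 in WT and 7.01 in Bcl11a-/- MPPs, and 7.18 in WT and 6.97 in Bcl11a-/- GMPs. WT MPPs stood above the other 3 arrays, which lay within 0.21 of each other. In WT cells the MPP minus GMP difference was 1.58 on the log2 scale, which 50 genes exceeded, and in Bcl11a-/- cells it was 0.04, with a range of −0.06 to 0.11 over the alternative settings. Of all genes, 69, *Cox6a2* included, had a difference between the MPP arrays of −1.76 or lower.

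Other listed cytochrome c oxidase subunits with signals well above 5 did not follow *Cox6a2*, and muscle genes were mostly too low on the arrays to tell. *Cox6a1*, the ubiquitous form of the same subunit, had differences of 0.06 in MPPs and 0.02 in GMPs. A family of 14 nuclear-encoded subunit genes, *Cox6a2* included but no *Cox4* gene, was listed after the values of *Cox6a2* were known. In it *Cox6a2* was the only one over 2-fold in MPPs, and the median was −0.04. *Cox7b2*, *Cox8b* and *Cox8c* had log2 signals of 3.23, 5.08 and 4.85 in WT MPPs, too low to show such a fall. All 7 muscle markers were within 2-fold in both populations, with MPP differences from −0.23 to 0.23. Only 2 of them reached a log2 signal of 6 in WT MPPs, where their median was 5.76. Genes this low could hardly show a fall as large as that of *Cox6a2*.

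*Pacsin1* encodes a membrane-curving protein of endocytosis that is best known from neurons. Its log2 signal was 5.18 in WT and 5.48 in Bcl11a-/- MPPs, and 5.30 in WT and 5.36 in Bcl11a-/- GMPs. *Pltp* encodes the phospholipid transfer protein of plasma lipoproteins, and its log2 signal was 5.71 in WT and 5.89 in Bcl11a-/- MPPs, and 5.84 in WT and 5.87 in Bcl11a-/- GMPs. Both were low on all arrays and within 2-fold in every comparison. Their MPP differences were 0.31 and 0.17.

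**Figure D2:**
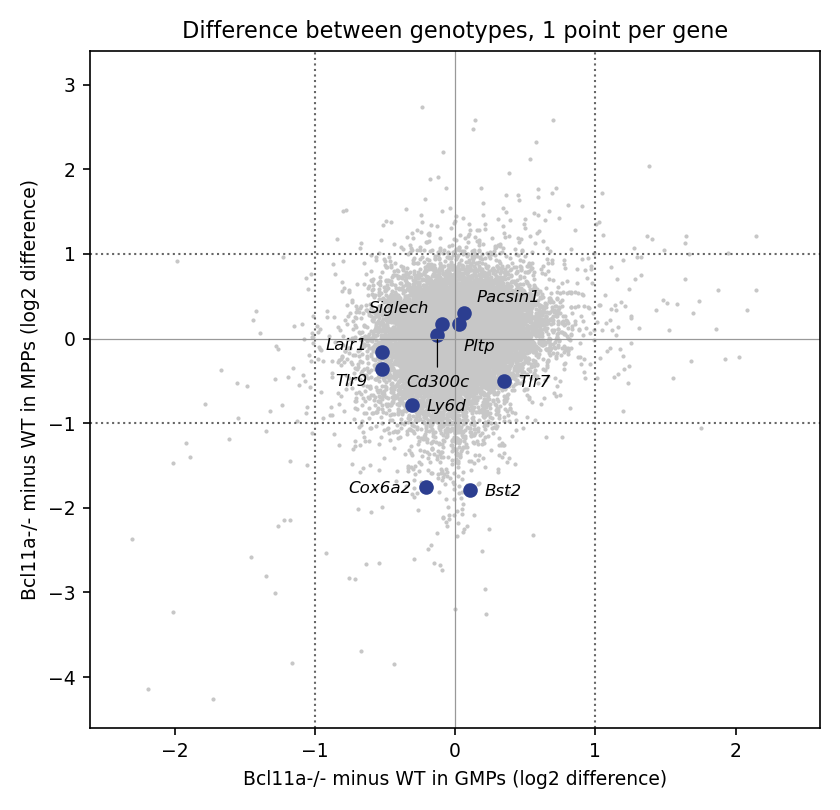
Log2 difference, Bcl11a-/- minus WT, in GMPs (horizontal) and MPPs (vertical) for all genes (gray) and the 10 pDC genes (blue), with dotted lines at a 2-fold difference; 2 of 19938 genes lie outside the axes. *Bst2* and *Cox6a2* lie under the lower line at −1.79 and −1.76 in MPPs but near 0 in GMPs (0.10 and −0.21), and the other 8 genes lie inside the lines.

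Between the populations, *Cox6a2* and *Tlr7* were higher and *Lair1* was lower by more than 2-fold in WT MPPs than in WT GMPs, 3 of 10 genes. Of all genes 1.33% were higher, 2.8% were lower and 4.14% passed in either direction. In Bcl11a-/- cells *Bst2* alone was over 2-fold, 3.22-fold lower in MPPs than in GMPs, where 5.82% of all genes were lower, 2.36% were higher and 8.18% passed in either direction. These comparisons share arrays with those between genotypes, so the Bcl11a-/- MPP array enters both values of *Bst2* and the WT MPP array both values of *Cox6a2*. The MPP difference minus the GMP difference was −1.89 for *Bst2* and −1.55 for *Cox6a2*, and such values were over 1 log2 unit in size for 3.71% of all genes.

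Genes whose 4 values ran most like those of *Bst2* and *Cox6a2* were sought among genes with a log2 signal of at least 6 on an array, by the distance between their centered values over the 4 arrays. Nearest to *Bst2* were *Map1lc3b* (distance 0.04), *Ndufs3* (0.18) and *Atp6v1f* (0.19), with MPP differences of −1.81, −1.99 and −1.83. Nearest to *Cox6a2* were *Gngt2* (0.17), *Cnn3* (0.23) and *Bend5* (0.39), with MPP differences of −1.59, −1.82 and −1.43. With 4 arrays such likeness is only a description, and 10151 genes were compared.

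Genomic span differed among the 10 genes along with their MPP differences. *Cox6a2* spans 0.93 kb, *Ly6d* 1.51 kb and *Bst2* 3.22 kb, the 3 shortest of the group and the 3 with the lowest MPP differences. The 5 genes of up to 5 kb had a median MPP difference of −0.78 and the 5 longer ones 0.17. Of the longer genes only *Lair1* reached a log2 signal of 6 on any array, while each of the shorter genes did on some array. Span and signal thus cannot be told apart in this group. Among all protein-coding genes with a mean log2 signal of at least 6, 8.41% of the 1118 genes of up to 5 kb were over 2-fold lower in MPPs without Bcl11a, beside 1.8% of the 4711 genes over 20 kb. Of these 1118 short genes 25, or 2.24%, *Cox6a2* included, had a difference as low as that of *Cox6a2* or lower. At a mean signal of at least 8, which *Bst2* reached but *Cox6a2* and *Ly6d* did not, the share over 2-fold lower was 15.4% of 473 short genes. Over the 8872 genes with a mean signal of at least 6, Spearman's correlation of span with the difference between genotypes was 0.15 in MPPs and −0.06 in GMPs, and over the 3053 genes of at least 8 it was 0.28 and −0.0022. Span also went with the MPP minus GMP difference, with a correlation of 0.19 in WT and 0.25 in Bcl11a-/- cells over the larger set and 0.29 and 0.37 over the smaller. These correlations are across genes, which share the same arrays and are not independent replicates. The part of genomic span in the *Bst2*, *Cox6a2* and *Ly6d* differences was not tested.

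**Figure D3:**
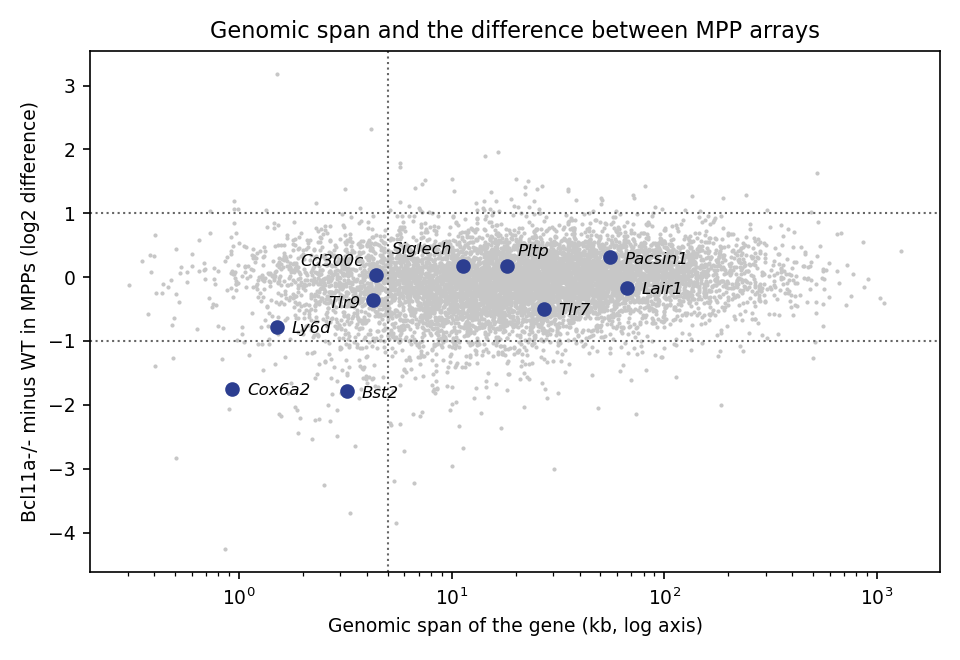
Genomic span (kb, log axis) against the log2 difference, Bcl11a-/- minus WT, in MPPs, for protein-coding genes with a mean log2 signal of at least 6 (gray) and for the 10 pDC genes whatever their signal (blue), with dotted lines at 5 kb and at a 2-fold difference. *Cox6a2*, *Bst2* and *Ly6d* lie at the left with the lowest values, and gray points under the lower line are more frequent at short spans.

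Other genes of pDCs that do not encode transcription factors were also mostly within 2-fold between genotypes. Of 23 measured, 20 were within 2-fold in MPPs and the other 3 were lower in Bcl11a-/- cells, with a median of −0.19. The 3 were *Dntt* (the template-independent polymerase TdT, 8.05-fold), *Blnk* (the B cell linker, 6.32-fold) and *Atp1b1* (a sodium pump subunit, 2.08-fold). *Dntt* and *Blnk* are also genes of the B lineage. In GMPs only *Dntt* was over 2-fold, and the median of the list was −0.05. That *Dntt* call also rests on a signal under 5, from 5.46 in WT to 4.18 in Bcl11a-/- GMPs. *Ccr9*, the chemokine receptor of mature pDCs, had signals between 3.96 and 4.59 on all arrays.

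Of 10 measured genes on a list of pDC transcriptional regulators, *Spib* and targeted *Bcl11a* were over 2-fold lower in Bcl11a-/- MPPs. *Id2*, also listed, encodes an antagonist of E proteins and not a pDC factor. It was 2.23-fold higher in Bcl11a-/- MPPs and had a difference of −0.53 in GMPs. *Spib* was 2.81-fold lower in MPPs and 2.07-fold lower in GMPs, and *Tcf4*, which encodes E2-2, had differences of −0.89 and −0.44.

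**Figure D4:**
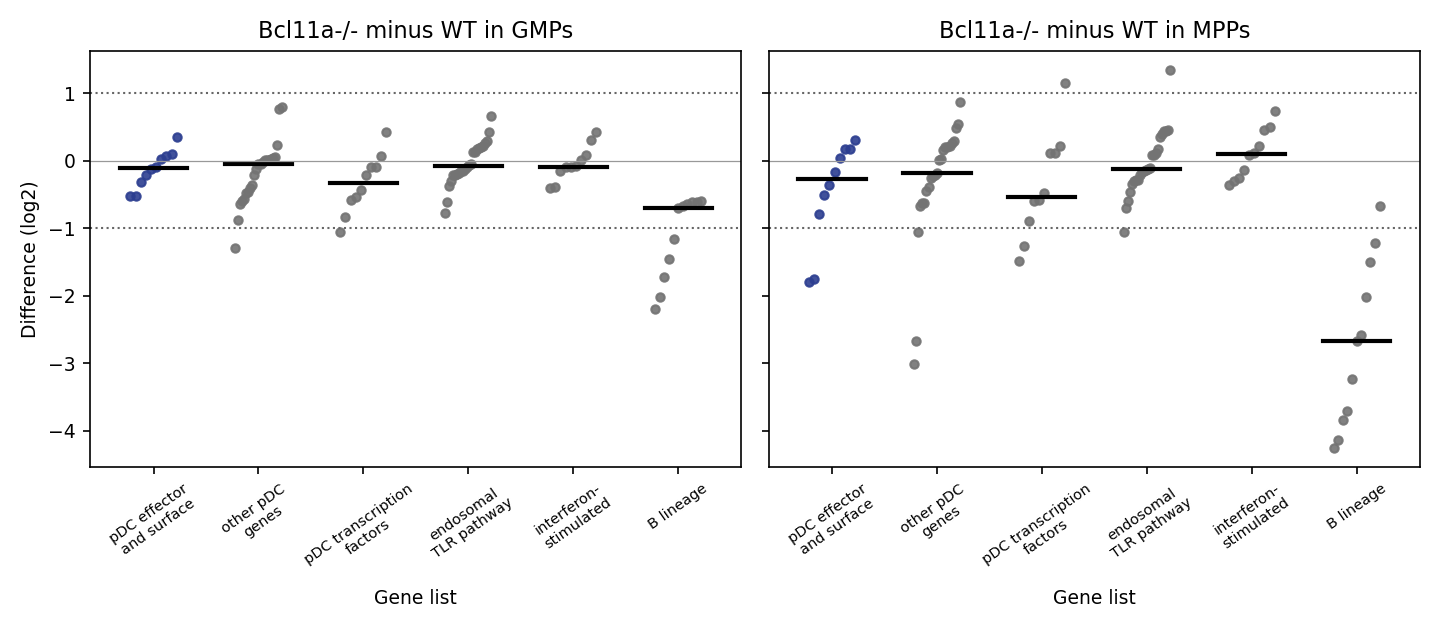
Log2 difference, Bcl11a-/- minus WT, of every measured gene in 6 lists in GMPs (left) and MPPs (right), with the list median as a black bar and dotted lines at a 2-fold difference; the 10 pDC effector and surface genes are in blue. Their median is −0.11 in GMPs and −0.26 in MPPs, the endosomal TLR median is −0.08 and −0.13, and the B lineage median is −0.69 and −2.66.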

How the data were processed

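Donor MPPs and GMPs of chimeric mice were sorted, cells of a genotype were pooled, and RNA was amplified, labeled with biotin and hybridized to 4 one-color arrays. The authors deposited 1 log2 value per probe set and array after RMA with quantile normalization in ArrayStar (version not given in the sources used here), which can hide a change in total mRNA per cell. The deposited distributions were still unequal. Their medians ran from 5.50 in WT GMPs to 5.70 in Bcl11a-/- MPPs, and their standard deviations from 2.30 to 2.10 on the same arrays. After quantile normalization anew the MPP differences of *Bst2* and *Cox6a2* were −1.75 and −1.76. Of 30177 rows, the 1324 with the lowest probe numbers, all unannotated, were left out as controls. Probe sets with 1 symbol in the platform annotation were averaged per gene, giving 19938 genes. All 10 symbols matched RefSeq (GRCm38.p6), from which genomic spans and promoter windows were taken. Log2 differences were computed per gene, and over 2-fold, the study's threshold, was counted. With 1 array per condition no test was run, and the number of arrays limits the precision.

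Members and gene lists were chosen with earlier results of these data known. The rule for named genes took the 10 members and *Bcl11a*, and allowed any list gene over 2-fold between genotypes or up to 4 with the largest differences per list, and the 3 genes nearest in pattern to each member over 2-fold between genotypes. *Tyrobp*, *Myd88*, *Irf7*, *Ccr9*, *Tcf4*, *Slamf1*, *Siglece*, the CD300 genes and the cytochrome c oxidase genes were, in part or whole, named outside this rule, and which of the allowed genes to name was chosen, after their values were seen. The counting was tested on simulated data. Alternatives were a floor at 5, a filter at 6, centering on the median or by lowess (span 0.3), quantile normalization anew, the brightest probe set, probe sets with several symbols, and thresholds of 1.5-fold and 3-fold. Python 3.11.15, pandas 2.3.3 and statsmodels 0.14.6 were used.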

Additional observations from a re-analysis of the deposited data

Results flagged for a closer look

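*Bst2* was singled out because its difference between Bcl11a-/- and WT cells had opposite signs in the 2 populations and the differences lay more than 2-fold apart. It was −1.79 in MPPs and 0.10 in GMPs, and the MPP difference minus the GMP difference was −1.89 on the log2 scale. In GMPs 64.6% of all genes had a difference at least as large in size, so the sign for *Bst2* there carries little weight. With 1 array per condition, whether the populations differ in this respect was not tested.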

How the results depend on the processing

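The MPP differences of *Bst2* (−1.84 to −1.70) and *Cox6a2* (−1.80 to −1.70) stayed over 2-fold under every alternative run, the 3-fold threshold included, and no member was over 2-fold in GMPs under any alternative at that threshold. Between WT MPPs and WT GMPs the count fell from 3 genes to 0 at a 3-fold threshold, and *Tlr7* was no longer over 2-fold after lowess centering (0.94), quantile normalization anew (0.94) or a floor at 5 (0). Between Bcl11a-/- MPPs and GMPs the count rose from 1 to 2 with median centering, when *Lair1* (−1.07) passed 2-fold, and to 4 at a 1.5-fold threshold. The medians of the group ranged from −0.57 to −0.08 for the MPP and from −0.26 to −0.06 for the GMP difference between genotypes. In all, 61 of 64 counts and medians and 257 of 262 single differences were labeled unchanged. A count was so labeled if it changed by no more than 1.5-fold, as from 3 genes to 2. A median or a single difference could move by up to 1.5-fold, and a single difference also had to stay on its side of the 2-fold threshold. Every main median was smaller than a 1.5-fold difference, so a median could reach 0 and still be labeled unchanged. These totals overstate stability, because some settings could not change a member's value. Each member had 1 probe set and none shared a probe set with other symbols. The brightest probe set and the probe sets with several symbols therefore returned the main values. The filter at 6 left genes out but changed no single difference. Of the single differences 9 changed sign, all within about 0.12 of 0 in both settings (*Cd300c* in MPPs, *Pltp* in GMPs, and *Cox6a2*, *Pacsin1* and *Pltp* between Bcl11a-/- MPPs and GMPs), and 6 were 0 with the floor at 5. No paired analysis was possible because each condition has 1 array and the labels carry no replicate numbers.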

Other observations

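Relatives of the pDC genes were within 2-fold between genotypes with few exceptions. Of 21 measured relatives, *Tlr3* was over 2-fold higher in Bcl11a-/- MPPs, from a WT signal under 5. *Lbp*, the lipopolysaccharide-binding relative of *Pltp*, was 2.37-fold lower in Bcl11a-/- MPPs, and none of the relatives was over 2-fold in GMPs. *Lbp* had log2 signals of 8.82 in WT and 7.57 in Bcl11a-/- MPPs, and 10.49 in WT and 9.94 in Bcl11a-/- GMPs. In the CD300 family, *Cd300a*, *Cd300lf*, *Cd300lb*, *Cd300ld*, *Cd300e* and *Cd300lg* had MPP differences from −0.26 to 0.17, as *Cd300c* did at 0.04. Among Siglec genes *Siglece* had the largest MPP difference, at 0.56.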
